A study of Triticum aestivum with 6 samples.

Results

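The gliadin locus Gli-1 and the glutenin locus Glu-3 lie close together near the tip of the short arm of each group 1 chromosome of bread wheat (Triticum aestivum). Gli-1 holds genes for gamma- and omega-gliadins and Glu-3 holds genes for low-molecular-weight glutenin subunits. Both are prolamins, the storage proteins that are made in the starchy endosperm and form gluten when flour is wetted. Each locus is a family of near-identical copies that alternate with pseudogenes and with unrelated genes. Here the genes were taken by identifier, since the numbers in the identifiers follow the order along each chromosome. The windows run from TraesCS1A01G004000 to TraesCS1A01G012000, from TraesCS1B01G008000 to TraesCS1B01G018000 and from TraesCS1D01G000100 to TraesCS1D01G011000. They hold 292 of the 127196 genes in the table, 81 on 1A, 101 on 1B and 110 on 1D, and the 358 identifiers next to them served as flanks.

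RNA came from endosperm of the winter wheat cultivar Zhoumai36, grown in the field and collected 25 days after anthesis. The innermost endosperm region (IE) came from the lobes at the centre of the middle grain section, and the remaining endosperm region (RE) was everything outside them, so that it holds aleurone as well as starchy endosperm. The regions were separated by hand after the pericarp had been taken off. There were 3 libraries of IE and 3 of RE, and the nitrogen level of the plants is not in their labels. The library totals behind the FPKM values, recovered from the values themselves, ran from 13959933 to 21766392 fragments, with the highest total in IE replicate 2. All values are FPKM, in which fragment numbers are divided by transcript length and by library total, so that levels can be compared between genes. A transcript of 1 kb with 3 fragments has between 0.138 and 0.215 FPKM, depending on the library.

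None of the window identifiers could be paired with a gene name in the reference table at hand, so 0 of 292 carry an annotation here. Which members are gliadins, glutenins, pseudogenes or other genes is therefore not stated, and members are named by identifier. The reads of Zhoumai36 were mapped to the genome of another cultivar, Chinese Spring. How reads that match several copies were divided is not given in the sources used here, so the split of fragments between copies is uncertain, in a cluster and between subgenomes, and the effect on the sums was not tested.

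A small number of neighbouring genes gave nearly all of the signal. Of the 292 members, 166 were at 0 in all 6 libraries and 52 stayed below a mean of 0.5 FPKM. The remaining 74 passed this filter and were tested, 19 on 1A, 14 on 1B and 41 on 1D. Only 21 members averaged 100 FPKM or more across the 6 libraries, and these abundant members took 99.5% of the summed FPKM of the windows. Of the 21, 16 were above 1000 FPKM and 7 above 10000 FPKM. Among all genes of the table, 8 of the 25 most abundant and 15 of the 100 most abundant were window members. Those 15 were 5 genes on 1A and 10 on 1D, and none was on 1B. The windows as a whole took between 7.42% and 14.9% of the summed FPKM of a library.

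**Figure D1:**
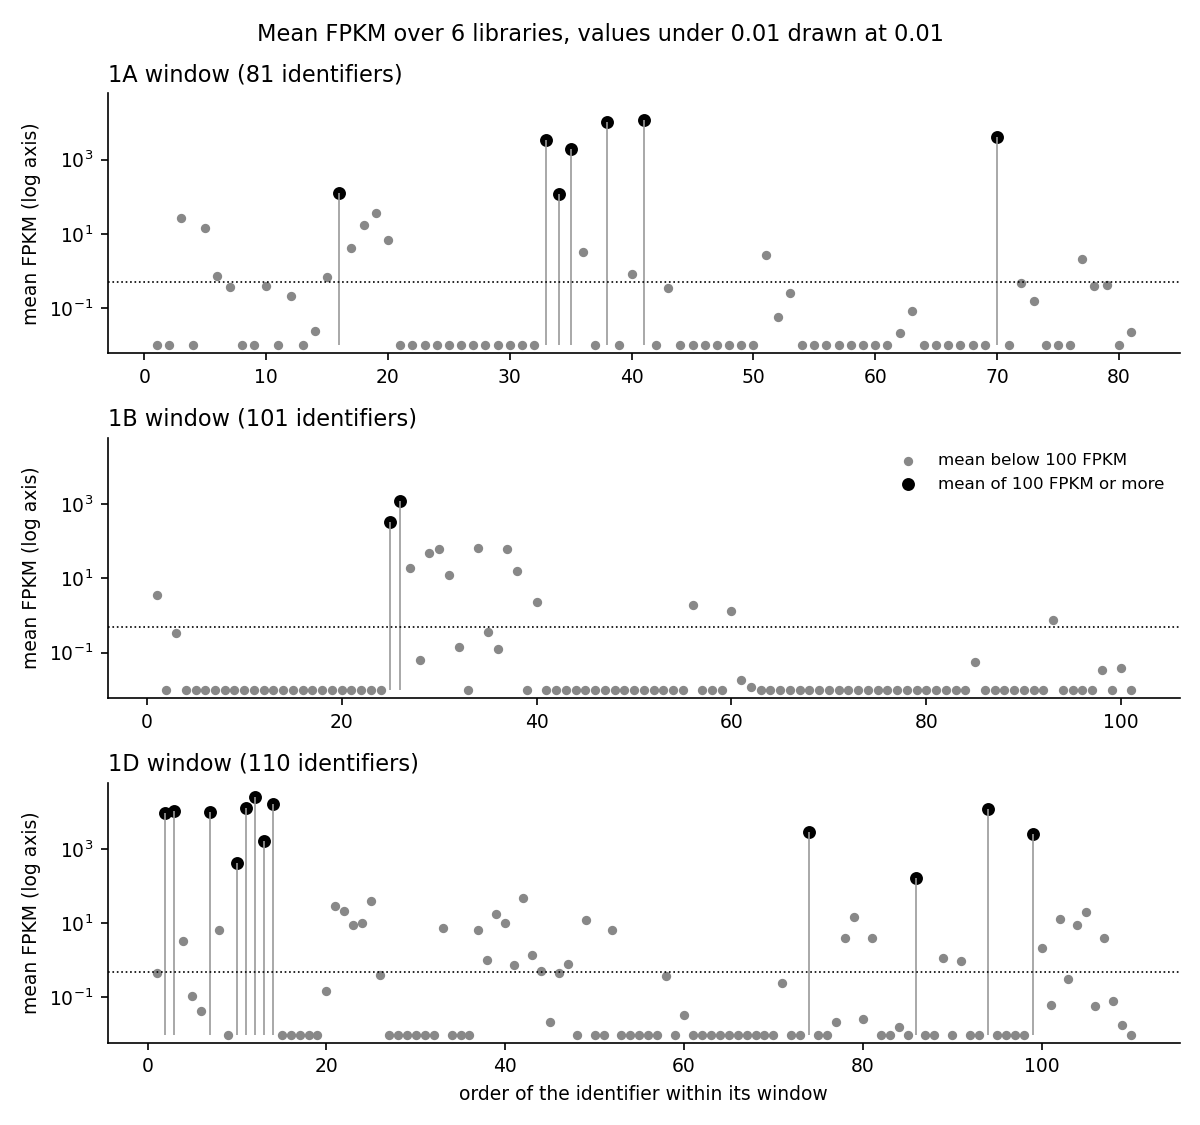
Mean FPKM over the 6 libraries (log axis) of each identifier, in the order of the identifiers within the 1A, 1B and 1D windows. Black points are the 21 members with a mean of at least 100 FPKM, grey points are the other members, values under 0.01 are drawn at 0.01, and the dotted line is the filter at 0.5 FPKM; the black points stand in short runs between long stretches at or near 0.

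On 1A, 5 abundant members lay within 9 neighbouring identifiers, from TraesCS1A01G007200 to TraesCS1A01G008000. This cluster took 86.1% of the window, and the highest of the other 4 identifiers inside it had a mean of 3.17 FPKM. Its 3 lower members, TraesCS1A01G007200, TraesCS1A01G007400 and TraesCS1A01G007300, had means of 3312, 1927 and 118 FPKM. TraesCS1A01G008000 led the window with 12698, 5817 and 12711 FPKM in the IE replicates 1, 2 and 3 and with 13531, 13694 and 11271 FPKM in the RE replicates. IE replicate 2 was lowest by far and the groups overlapped. The second gene of the cluster, TraesCS1A01G007700, had 11742, 7028 and 15021 FPKM in IE and 11025, 8842 and 8478 FPKM in RE. A single gene farther along, TraesCS1A01G010900, accounted for another 13.1% of the window, with 4722, 2204 and 2953 FPKM in IE and 4225, 5891 and 5011 FPKM in RE. For both, IE replicate 2 was again the lowest of the 6 libraries, and the groups overlapped.

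On 1D, 8 abundant members lay within the 13 identifiers from TraesCS1D01G000200 to TraesCS1D01G001400, near the start of the numbering of the chromosome, and took 82.6% of the window. TraesCS1D01G001200 was the most abundant member of all windows and ranked 4 among all genes. It had 30467, 17817 and 34277 FPKM in IE and 23197, 23439 and 22146 FPKM in RE, so that IE replicates 1 and 3 were above and IE replicate 2 below every RE library. Next in this cluster came TraesCS1D01G001400, with 16950, 11182 and 21083 FPKM in IE and 17943, 14274 and 13701 FPKM in RE. The other 6 members of the cluster fell into levels far apart. TraesCS1D01G001100, TraesCS1D01G000300, TraesCS1D01G000700 and TraesCS1D01G000200 had means of 12915, 10514, 9868 and 9398 FPKM, while TraesCS1D01G001300 had 1635 and TraesCS1D01G001000 had 409 FPKM. The highest of the 5 other identifiers inside the cluster reached 6.62 FPKM. A second cluster of 3 abundant members spread over 14 identifiers, from TraesCS1D01G008600 to TraesCS1D01G009900, and took 14.3% of the window. It was led by TraesCS1D01G009400, with 14212, 6998 and 15012 FPKM in IE and 12202, 12520 and 12028 FPKM in RE. Here too IE replicate 2 lay far below the other 5 libraries. The others in this cluster, TraesCS1D01G009900 and TraesCS1D01G008600, had means of 2550 and 168 FPKM. The last abundant member, TraesCS1D01G007400, stood alone with a mean of 2904 FPKM.

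On 1B, the signal was lower by more than 1 order of magnitude. The 2 abundant members were the neighbours TraesCS1B01G010400 and TraesCS1B01G010500, which took 84.0% of the window. TraesCS1B01G010500 had 1530, 729 and 1807 FPKM in IE and 1205, 1238 and 903 FPKM in RE. TraesCS1B01G010400 had 337, 176 and 574 FPKM in IE and 405, 254 and 268 FPKM in RE. Both were lowest in IE replicate 2, and the groups overlapped for both. They opened a run of 14 identifiers, up to TraesCS1B01G011700, in which 9 members passed the filter with means between 12.7 and 1235 FPKM. This run, whose end was chosen after its values were seen, took 99.4% of the window. TraesCS1B01G011300 in this run, also named after its values were seen, had 74.1, 39.8 and 138 FPKM in IE and 74.3, 59.6 and 13.6 FPKM in RE. Its value in RE replicate 3 was below those of all other libraries.

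The summed FPKM of the 3 windows thus differed. The windows hold 81, 101 and 110 identifiers on 1A, 1B and 1D, and their sums do not stand for whole subgenomes. Over all 6 libraries the mean sum was 103908 FPKM for 1D, 31747 FPKM for 1A and 1869 FPKM for 1B, which makes 1D 3.27 times 1A and 55.6 times 1B. The order 1D, 1A, 1B held in each of the 6 libraries. The recovered transcript lengths of the abundant members ran from 471 to 1221 bases with a median of 1035, against a median of 1124 over all genes tested. Of the 21 lengths, 15 were multiples of 3, against 75.1% of the tested reference genes.

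The comparison of IE with RE asks whether the transcripts of these loci differ between the centre of the grain and the layers around it. The 1A window summed to 35826, 19365 and 38657 FPKM in the IE replicates 1, 2 and 3 and to 34455, 32959 and 29221 FPKM in the RE replicates. The 1D window summed to 120212, 68150 and 134800 FPKM in IE and to 102457, 102605 and 95224 FPKM in RE. In both windows IE replicates 1 and 3 were above every RE library and IE replicate 2 was below every one. The 1B window showed the same pattern, with 2236, 1066 and 2810 FPKM in IE and 1880, 1807 and 1418 FPKM in RE. The log2 ratio of IE to RE was -0.10 for 1A (two-sided exact permutation p = 1, n = 3 and 3), 0.16 for 1B (exact p = 0.8) and 0.05 for 1D (exact p = 1). With 3 libraries against 3 this test cannot go below 0.1. Differences between IE and RE were thus smaller than the spread between the IE libraries.

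The direction of the sums depended on which IE library was left out. Without IE replicate 2, the log2 ratios were 0.21 for 1A (exact permutation p = 0.2), 0.57 for 1B (exact p = 0.1) and 0.35 for 1D (exact p = 0.1), where 0.1 is again the smallest p that 2 libraries against 3 can give. Adjusted over the 3 windows these p-values were 0.2, 0.15 and 0.15. Without IE replicate 3, the log2 ratios were -0.29 for 1A, -0.13 for 1B and -0.14 for 1D, and without IE replicate 1 they were -0.23, 0.04 and -0.06, with exact permutation p-values between 0.7 and 1. The sums in IE replicate 2 were 0.520 (1A), 0.423 (1B) and 0.534 (1D) times the mean of the other IE libraries. It was the lowest of the 6 libraries for 18 of the 21 abundant members, and for 212 of the 822 other genes averaging 100 FPKM or more (25.8%). The 822 genes were not matched to the members in level. On group 1 outside windows and flanks, TraesCS1B01G426100, TraesCS1A01G398200 and TraesCS1D01G405700 ranked 5, 6 and 9. They too were lowest in IE replicate 2, with 18209, 14115 and 11781 FPKM. So was TraesCS1A01G317500 (rank 40), but not TraesCS1D01G317300 and TraesCS1D01G405600 (ranks 33 and 45). The median ratio of IE replicate 2 to the other IE libraries was 0.524 over the 21 members, with a range of 0.335 to 0.901, and 0.950 over the 822 other genes.

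The study names further storage protein genes elsewhere in the genome. The globulin gene TraesCS4D01G171800, which encodes a storage protein of another class, had 160, 403 and 186 FPKM in IE and 356, 372 and 547 FPKM in RE. IE replicate 2 was thus within the range of RE and more than 2-fold above the other IE libraries. The globulin gene TraesCS7D01G351300 had 1.70, 6.22 and 0.663 FPKM in IE and 6.63, 2.01 and 2.93 FPKM in RE, and here too IE replicate 2 lay within the range of RE. The gliadin gene TraesCSU01G153800, which is on no assembled chromosome, had 44.7, 31.9 and 50.4 FPKM in IE and 21.1, 24.4 and 25.5 FPKM in RE, so that IE replicate 2 was the lowest IE library but above all of RE. All 3 genes were above 0 in all 6 libraries. Whether the separation of the regions has a part in the low sums of IE replicate 2 was not tested. In these bulk samples fewer cells of a type and less RNA per cell cannot be told apart.

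**Figure D2:**
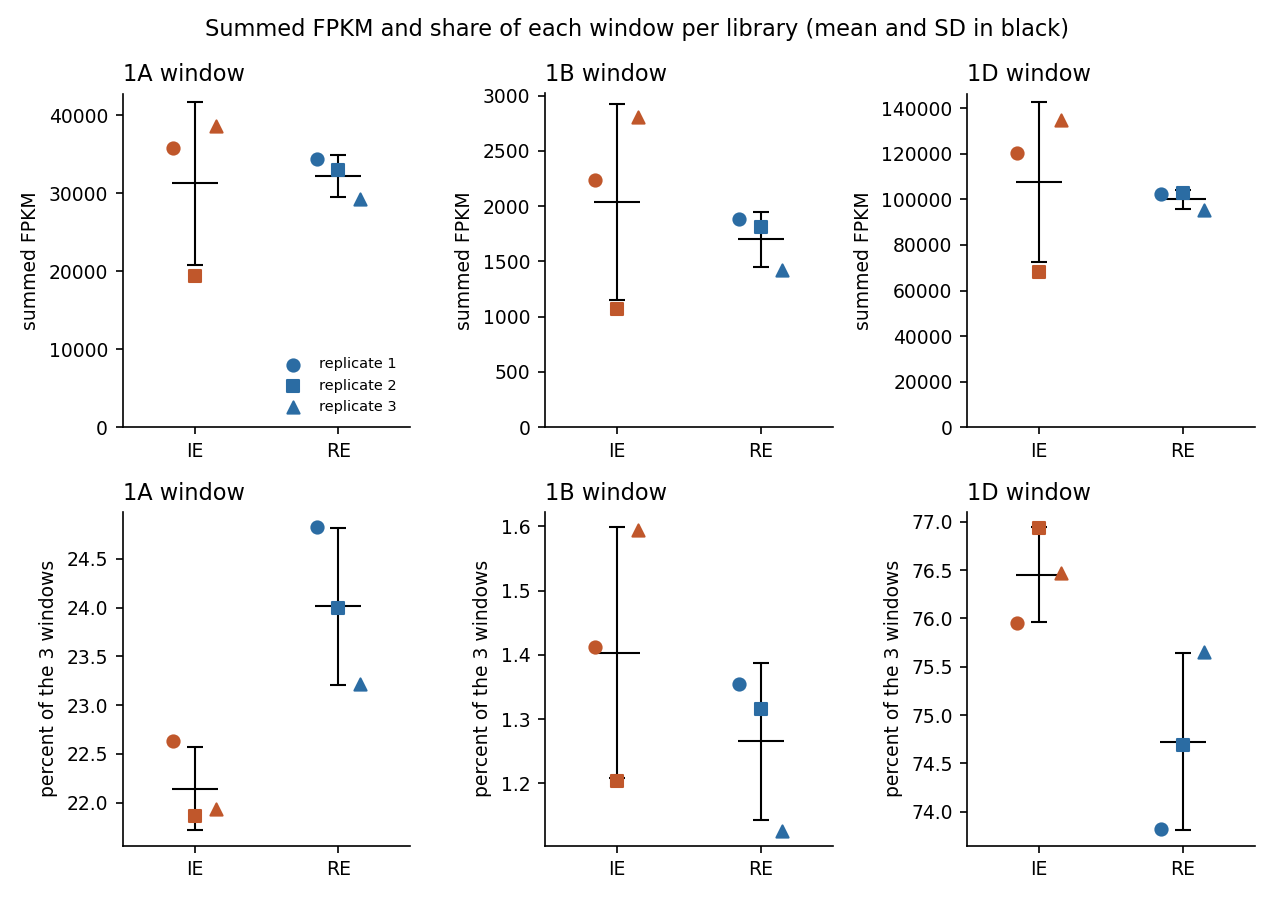
Top row, summed FPKM of the 1A, 1B and 1D windows in each IE and RE library, with the mean and SD of 3 libraries in black; IE replicate 2 (square) is the lowest of 6 in every window. Bottom row, the percent of the 3 windows' summed FPKM that each window took, on axes that do not start at 0; the IE and RE libraries do not overlap for 1A and 1D.

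No gene passed the threshold for differential expression, in the windows or elsewhere. Of the 51830 genes tested with limma on log2(FPKM + 0.1), 0 had a Benjamini-Hochberg adjusted p of at most 0.05 with at least a 2-fold change (0%), and 0 of the 74 members tested did, with 0.359 as their lowest adjusted p. At an unadjusted p of at most 0.05 and 2-fold, 2980 genes remained (5.75%), 2 of them members. voom on the recovered fragments also called 0 genes. The log2 fold changes of IE relative to RE ran from -0.67 to 0.65 over the 21 abundant members, with a median of 0.06, while the median over all genes tested was -0.12. Over the 74 members tested the median was -0.07.

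With all libraries, the members whose IE and RE values did not overlap were about as frequent as in the whole table. Of the 74 members, 7 (9.46%) had all IE values below all RE values, against 11.9% of all genes tested, and 2 (2.70%) had all IE values above, against 4.35%. Without IE replicate 2 these counts were 11 members lower (14.9%), against 27.1% of all genes tested, and 19 members higher (25.7%), against 9.15%. Among the 21 abundant members only TraesCS1A01G005500 was lower in every IE library, and none was higher. Without IE replicate 2, 10 of the 21 were higher in IE, 1 was lower and 10 overlapped. The fitted log2 fold change was then positive for 18 of the 21, with a median of 0.31, against -0.18 over all genes tested. Their lowest adjusted p was 0.135 (limma, Benjamini-Hochberg). IE replicate 2 was the lowest library for 18 of the 21 members, so leaving it out raises their IE means by construction. Of the 74 members, 14 were lower and 3 higher without IE replicate 1, against 9549 and 4138 of the 51830 genes tested. Without RE replicate 1, 14 were lower and 6 higher, against 10680 and 4003 of the 51830. In both settings, members lower in IE were about as frequent as among all genes tested.

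Among the 9 members whose groups did not overlap, those with the largest fitted differences were of low or moderate level. TraesCS1A01G005700 had 11.8, 14.8 and 8.55 FPKM in IE and 22.6, 23.2 and 24.9 FPKM in RE, which do not overlap. Its log2 fold change was -1.04 with an adjusted p of 0.359 in the limma fit, and it was 1 of the 2 members at the unadjusted threshold. The other was TraesCS1D01G008900, with 1.29, 1.48 and 2.71 FPKM in IE and 0.437, 0.527 and 0.425 FPKM in RE, where all IE libraries were higher (log2 fold change 1.71, adjusted p = 0.359 in limma). Its values rest on between 7 and 34 fragments per library.

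On 1D, TraesCS1D01G002400 was lower in every IE library, with 7.86, 9.04 and 5.64 FPKM in IE against 12.1, 13.6 and 12.6 FPKM in RE. TraesCS1D01G002200 was lower in IE as well, with 17.4, 16.3 and 14.2 FPKM against 29.2, 25.6 and 27.4 FPKM. Both had a log2 fold change of -0.78, with adjusted p-values of 0.364 and 0.359 in limma. On 1A, TraesCS1A01G005500 had 102, 96.9 and 113 FPKM in IE and 152, 145 and 140 FPKM in RE (log2 fold change -0.49, adjusted p = 0.455 in limma), and TraesCS1A01G009000 stayed between 2.24 and 3.43 FPKM in all libraries. None of the 14 members tested on 1B had groups that did not overlap. In these 6 members the value in IE replicate 2 was between 0.740 and 1.46 times the mean of the other IE libraries.

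**Figure D3:**
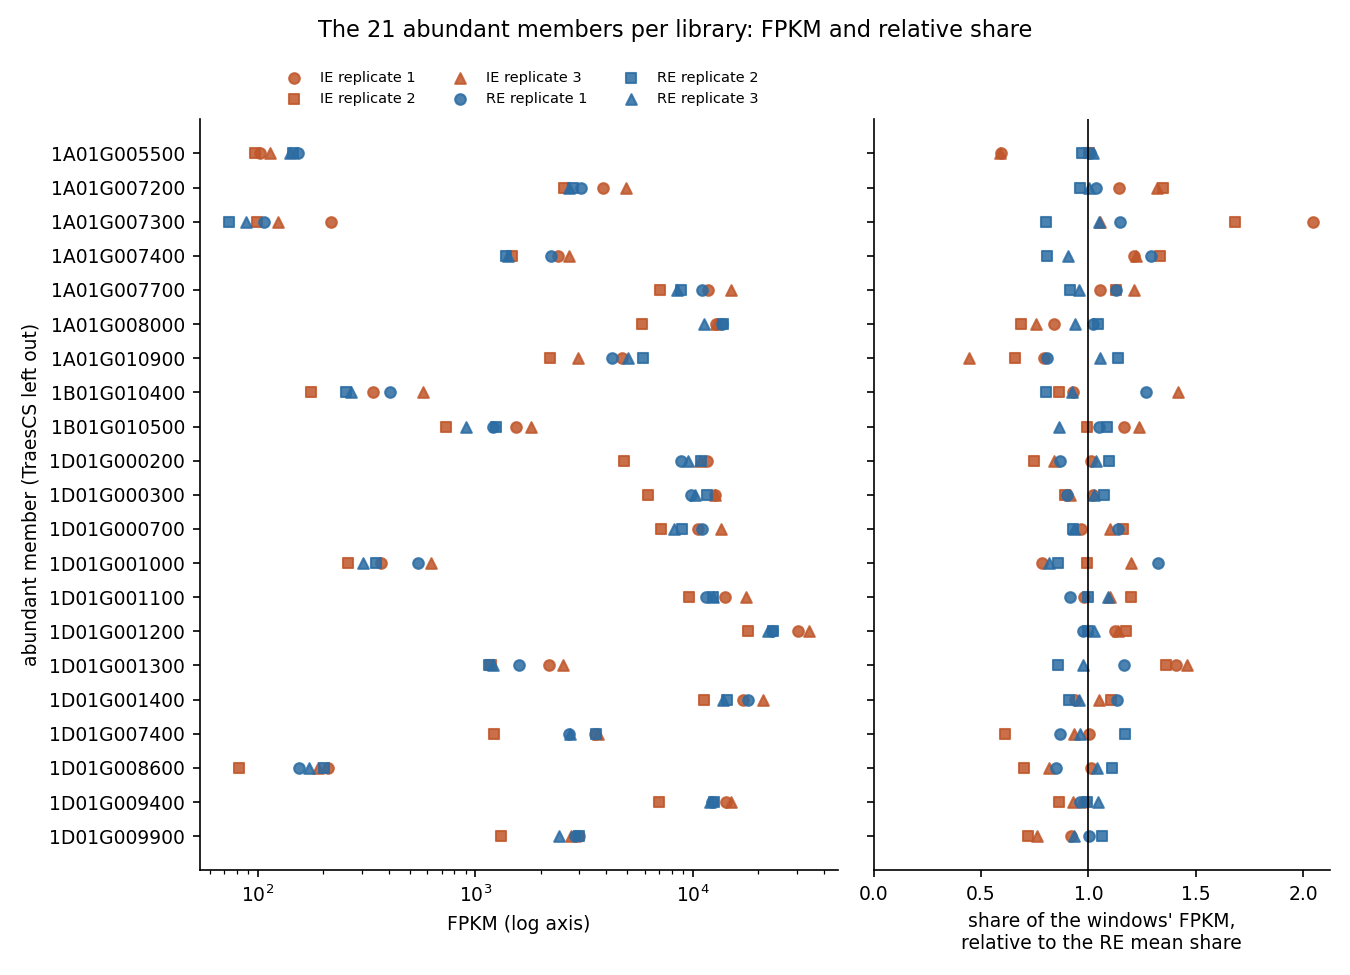
Left, FPKM (log axis) of the 21 abundant members in each library, with IE in orange and RE in blue and a marker shape for each replicate number. Right, the share of each member in the windows' summed FPKM divided by its mean share in RE; IE replicate 2 (orange square) is the lowest FPKM for 18 members on the left, while on the right its share is the lowest for 7 members, the highest for 5 and within the other libraries for 9.

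Shares within the windows do not depend on how much of a library the windows took. The 1A window took 22.6%, 21.9% and 21.9% of the 3 windows' summed FPKM in the IE replicates and 24.8%, 24.0% and 23.2% in the RE replicates. The 1D window took 76.0%, 76.9% and 76.5% in IE and 73.8%, 74.7% and 75.7% in RE. The share of 1A was thus lower in every IE library by a mean of 1.87 percentage points, and that of 1D higher by 1.73 percentage points. Since the 3 shares add up to the whole and 1B took little, these are 1 difference seen from both sides. Each exact permutation p was 0.1, the smallest possible, and 0.15 when adjusted over the 3 windows. The share of 1B was 1.40% ± 0.195 (SD, n = 3) in IE and 1.27% ± 0.122 (SD, n = 3) in RE and overlapped (exact p = 0.4). These differences rested on the most abundant genes: without the top member of each window, the share of 1A was 0.67 percentage points higher in IE and that of 1D 0.71 lower (exact permutation p = 0.3 for both).

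Among the abundant members, 3 had all IE shares above all RE shares, 3 had them below and 15 overlapped. TraesCS1D01G001200 took 19.2%, 20.1% and 19.4% of the windows' FPKM in IE and 16.7%, 17.1% and 17.6% in RE. TraesCS1A01G007200 took 2.43%, 2.87% and 2.80% in IE and 2.20%, 2.04% and 2.13% in RE, and TraesCS1D01G001300 likewise took 1.38%, 1.33% and 1.43% in IE and 1.14%, 0.841% and 0.953% in RE. In the opposite direction, TraesCS1A01G008000 took 8.02%, 6.57% and 7.21% in IE and 9.75%, 9.97% and 8.95% in RE. The others with a smaller share in IE were TraesCS1A01G010900 and TraesCS1D01G009900, whose IE shares were 0.632 and 0.799 times those in RE. With all genes tested set against the windows' sum in the same way, 4.06% were lower and 3.03% higher in every IE library. The windows' sum was 88582 FPKM in IE replicate 2, against 158274 and 176267 FPKM in IE replicates 1 and 3. Dividing by it raises genes outside the windows in IE replicate 2, which makes overlap more likely for them. These percentages are therefore not a like background for the members, and more members than this cannot be read as an excess. TraesCS1A01G007200 and TraesCS1A01G008000, whose shares differed in opposite directions, belong to the same run of 9 identifiers.

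The 53 tested members below 100 FPKM had means between 0.699 and 37.3 FPKM on 1A, between 0.784 and 66.6 FPKM on 1B and between 0.506 and 46.6 FPKM on 1D. On 1B, 9 of the 12 such members had a value in IE replicate 2 under 0.65 times the mean of the other IE libraries, as 20 of the 21 abundant members had. On 1A 1 of 12 and on 1D 1 of 29 had such a low ratio, and of all 51756 other genes tested 10.5% had one. The limit of 0.65 was chosen after the values were seen. The median ratio was 0.463 for the 12 members on 1B, 0.947 for the 12 on 1A and 1.15 for the 29 on 1D. In the run of 9 tested members on 1B, IE replicate 2 was the lowest IE library for all 9, with ratios between 0.310 and 0.4997. Whether reads of other copies were assigned to them was not tested.

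The flanks held far less signal than the windows. Their 358 identifiers summed to a mean of 13103 FPKM, against 137525 FPKM for the windows, and to 750.2 FPKM without a single gene. That gene, TraesCS1D01G015100, chosen for its level, had 14658, 6421 and 13459 FPKM in IE and 12277, 14708 and 12596 FPKM in RE. It lies beyond the end of the 1D window, and it was lowest in IE replicate 2. The 1D flanks summed to 14847, 6775 and 13673 FPKM in IE, nearly all of it from this gene. Their sum in IE replicate 2 was 0.475 times the mean of the other IE libraries, which is largely the ratio of this gene. The 1A and 1B flanks were at 1.88 and 1.47 times. The 1A flanks summed to 311, 695 and 430 FPKM in IE and to 211, 348 and 299 FPKM in RE. Of these sums, TraesCS1A01G014100, also chosen for its level, gave 137, 514 and 266 FPKM in IE and 37.7, 175 and 118 FPKM in RE. The log2 ratio of IE to RE was 0.70, -0.20 and -0.28 for the 1A, 1B and 1D flanks (exact permutation p = 0.2, 0.4 and 0.8). On 1A and 1D these ratios depend on the single genes named here and do not describe the flanks as a whole. The filter was passed by 58 flank identifiers (16.2%), by 74 in the windows, or 25.3%, and by 40.7% of the whole series. Windows and flanks hold reference identifiers only. Over all reference identifiers of the series, 34.8% passed. Within the windows the shares were 23.5% on 1A, 13.9% on 1B and 37.3% on 1D, with Wilson 95% intervals of 15.6 to 33.8%, 8.44 to 21.9% and 28.8 to 46.6%, which cover counting error only. In the flanks they were 22.7%, 7.55% and 23.8%.

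The low share on 1B reached far beyond the window. Among the first 1519 identifiers of 1B, 13.3% passed the filter, against 36.1% on 1A and 38.5% on 1D. This was the lowest of the 21 chromosomes over the same range, followed by 2B with 21.1%. In the rest of 1B the share was 37.7%, close to the 39.0% on 1A and the 38.6% on 1D. In bins of 80 identifiers, the first 19 bins of 1B ranged from 6.25% to 25.0%, with a median of 13.8%, and the 41 bins after them ranged from 17.5% to 55.0%, with a median of 38.8%. The place of this step was read from the data, and the values are given as a description without a test. As background, many winter wheats carry a chromosome arm of rye in place of the short arm of 1B. The makeup of 1B in Zhoumai36 is not given in the sources used here, and its part in the low values on 1B was not tested.

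**Figure D4:**
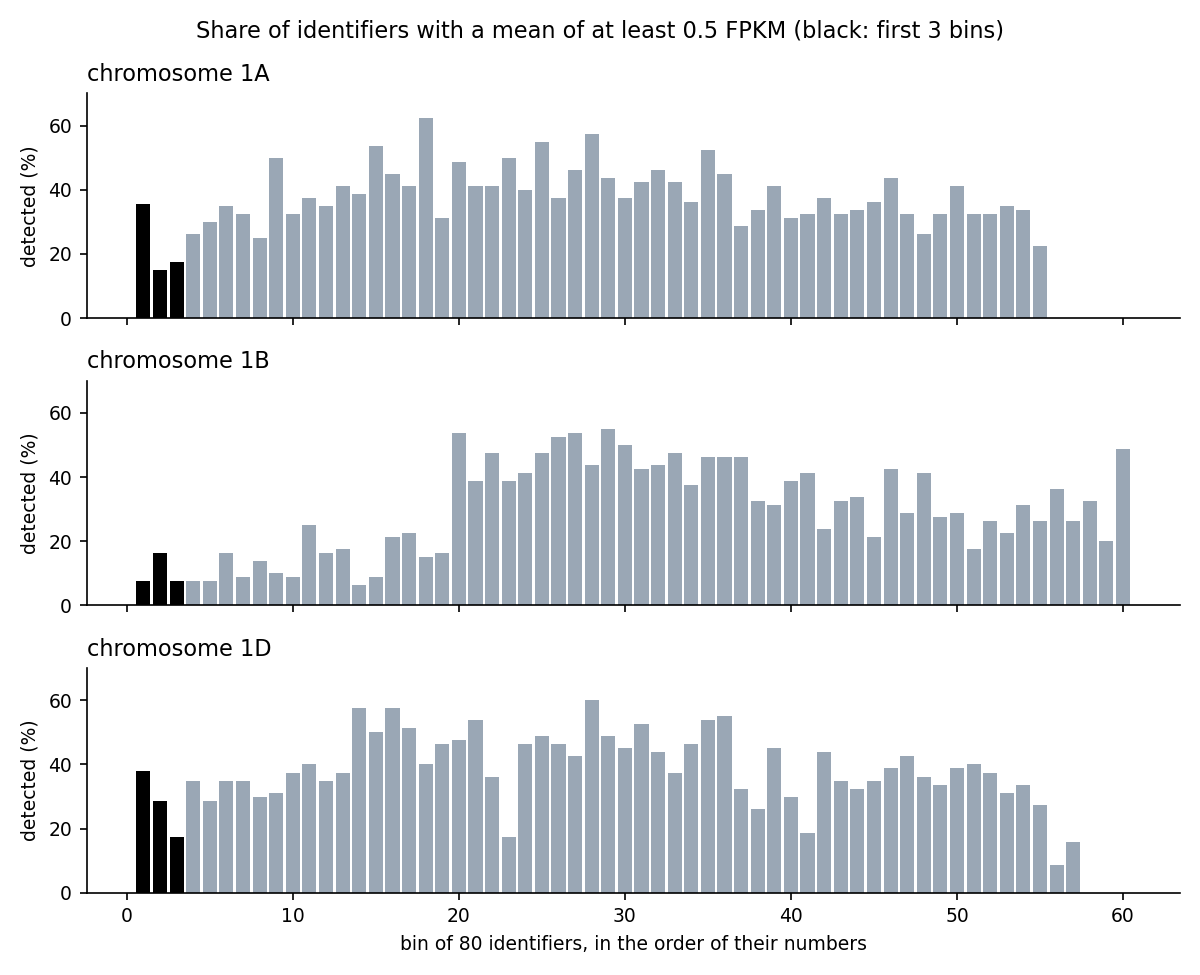
Share of identifiers with a mean of at least 0.5 FPKM in bins of 80 identifiers along chromosomes 1A, 1B and 1D, in the order of their numbers, with the first 3 bins in black. On 1B the first 19 bins stay at or below 25.0%, and the next bins rise to the level of the other chromosomes.

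Storage protein synthesis is also controlled by bZIP transcription factors, some of which bind the promoters of prolamin genes. When the study silenced TraesCS7B01G391800 in spikes with a virus vector, the storage protein content of the grain was higher than in controls. The paper proposes that TraesCS7B01G391800 might act against storage protein deposition. Of the bZIP genes in the study, TraesCS7B01G391800 had 28.4, 15.4 and 35.2 FPKM in IE and 11.7, 7.54 and 4.71 FPKM in RE. TraesCS7D01G475100 had 54.6, 22.6 and 73.0 FPKM in IE and 18.7, 12.8 and 7.06 FPKM in RE. Both were higher in every IE library, by 1.72 and 1.90 on the log2 scale, with adjusted p-values of 0.359 and 0.363 in limma. As for the clusters, IE replicate 2 was the lowest IE library for both. With the gliadin and the globulins above, 0 of these 5 genes passed the adjusted threshold. Their log2 fold changes were 0.82 for the gliadin and -0.87 and -0.77 for the globulins on 4D and 7D. The study used another test (given as DEGseq2) and another threshold, a p of at most 0.05 with 2-fold. It lists the gliadin as higher in IE and both globulins as higher in RE at high nitrogen. TraesCS7B01G391800 is listed there as higher in IE at both nitrogen levels. The count of 0 is therefore not a like comparison with the study. These genes were chosen by the study on its own libraries and are not independent evidence of a direction.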

How the data were processed

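Reads were cleaned by the Illumina filter and fastp and aligned by HISAT2 against Chinese Spring (IWGSC1_popseq.31 as the study writes it), and the authors deposited an FPKM value for each gene in each library. The counter, its strand setting and its treatment of multiply mapped reads are not given in the sources used here. Whole fragment numbers, lengths and library totals were recovered from the FPKM steps, for 100% of 86042 genes above 0 (tolerance 0.02 fragments), and used for depth and checks only. The regions were set against each other on log2(FPKM + 0.1) in limma 3.58.1 under R 4.3.3 (lmFit, eBayes with trend), over the 51830 genes averaging 0.5 FPKM or more. Folds on this scale understate changes of low genes. Sums and shares were compared by exact permutation tests over libraries (Python 3.11.15, numpy 2.4.6, pandas 2.3.3, scipy 1.17.1; plots with matplotlib 3.10.9). The fits were also run on simulated data with the same spread for every gene and no outlying library. That run does not show how they handle a library such as IE replicate 2. Whether replicates came from separate plots is not in the labels, so p-values measure only the spread between these libraries. Replicate numbers were not treated as pairs, because deviations of same-numbered libraries correlated by 0.111, 0.0588 and -0.203.

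Named are members with a mean of at least 100 FPKM, the 3 non-overlapping members of largest change in each window, and 5 genes of the study. Clusters join abundant members at most 10 identifiers apart, and flanks reach 80 identifiers. The members and lists were chosen with earlier results of these data known. Alternatives changed the pseudocount, filter, scaling, variance model, replicate block, unit of the sums and thresholds, or left out a library or the top members. Shares of single members, the counts without IE replicate 2 over all genes, the 1B run and the step along 1B were added after seeing the data. Of the 12 libraries the study describes, 6 were analysed here.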

Additional observations from a re-analysis of the deposited data

How the results depend on the processing

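The number of genes called was 0 in every fit with adjusted p-values, all genes and members alike, and at an unadjusted p it was 2980 genes and 2 members. The lowest adjusted p of a member lay between 0.0575 (without IE replicate 2) and 0.897 over the alternatives. A paired fit with a replicate block also called 0. With 3 libraries in each group it cannot move a mean difference, such as the log2 ratio of -0.10 for the 1A sum, and only the p-values could differ. The exact p of the 1A and 1D shares was 0.25 in the paired test, the smallest it can give. Median-ratio scaling moved the median log2 fold change of all genes from -0.12 to 0.0039, raised the count of genes higher in every IE library to 3528, and turned the 1A sum to 0.0229, TraesCS1D01G000300 to 0.0545 and TraesCS1D01G009400 to 0.0255. Rescaling to TPM turned TraesCS1D01G001000 to -0.0308. Without the most abundant member of each window, the log2 ratio was 0.0561 for 1A and -0.0047 for 1D, and the shares differed by 0.67 percentage points for 1A and -0.71 for 1D.

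Leaving out each library in turn, non-overlapping genes numbered 7335 to 14027 lower and 3411 to 4742 higher in IE, and members 8 to 14 and 2 to 19. The ends of these ranges do not all come from the same left-out library. The ranges of members can therefore not be set against those of all genes. The log2 ratio of the sums ran from -0.29 to 0.21 on 1A, from -0.13 to 0.57 on 1B and from -0.14 to 0.35 on 1D. Log2 fold changes that crossed 0 ran from -0.0469 to 0.50 for TraesCS1A01G007700, -0.31 to 0.54 for TraesCS1B01G010400, -0.0652 to 0.59 for TraesCS1B01G010500, -0.43 to 0.21 for TraesCS1D01G000200, -0.24 to 0.27 for TraesCS1D01G000300, -0.0882 to 0.37 for TraesCS1D01G000700, -0.32 to 0.31 for TraesCS1D01G001000, -0.0549 to 0.38 for TraesCS1D01G001100, -0.14 to 0.31 for TraesCS1D01G001400, -0.52 to 0.28 for TraesCS1D01G007400, -0.49 to 0.19 for TraesCS1D01G008600, -0.30 to 0.25 for TraesCS1D01G009400 and -0.54 to 0.0631 for TraesCS1D01G009900. The other 18 of 31 named genes kept their sign in every alternative. None of these fold changes had an adjusted limma p of at most 0.05, and none of the sums had such an exact permutation p. The cause of the changes was not tested. Depth limits members at 0, which at these totals may lie below 0.138 to 0.215 FPKM for a transcript of 1 kb.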
